A study of Mus musculus with 16 samples.

Results

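Heat shock proteins and chaperones were followed in hearts lacking 1 or both of the muscle ring finger proteins MuRF1 and MuRF2, which are encoded by Trim63 and Trim55. Members were taken by gene name: the Hspa, Hspb, Hspd, Hspe, Hsph, Hsp90 and Dnaj families, the CCT chaperonin subunits with Tcp1, Cryab, and Bag1 to Bag6, with old names that begin with these letters or with Hspc included. The array carried 170 probes for 90 such genes, and 79 of them were among the 12331 genes that were bright enough to be tested. By textbook location 50 of the 79 were cytosolic or nuclear, together called cytosolic below. The endoplasmic reticulum had 13 and mitochondria 8, and 8 lay elsewhere or had no clear place. RNA came from hearts of 12 week old mice of 4 strain-matched genotypes, with 4 arrays each and 1 replicate per array: MuRF1 -/- // MuRF2 -/- (double null), MuRF1 -/- // MuRF2 +/- (MuRF1 null MuRF2 het), MuRF1 +/- // MuRF2 -/- (MuRF1 het MuRF2 null) and MuRF1 +/+ // MuRF2 +/+ (wild type). The alleles are whole-animal genotypes in the labels, and neither the way the genes were disrupted nor the name of the heart donors' strain is given in the sources used here. Values below are log2 ratios of heart over reference RNA, the reference being a pool of whole C57BL/6 pups at postnatal day 1, so levels of different genes were not set against each other.

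Heart signal was well above background for 6028 to 14481 probes in double null, 6397 to 15058 in MuRF1 null MuRF2 het, 16128 to 17383 in MuRF1 het MuRF2 null and 15165 to 16662 in wild type hearts. The dimmest arrays were double null 2 and MuRF1 null MuRF2 het 1. Slides 1 and 3 each held 2 double null and 2 wild type arrays, while slide 2 held all MuRF1 null MuRF2 het and slide 4 all MuRF1 het MuRF2 null arrays, and for those 2 groups genotype and slide cannot be told apart. Trim63, the targeted MuRF1 gene, was at -1.04 to -0.39 in double null, -0.85 to -0.34 in MuRF1 null MuRF2 het, 1.70 to 2.13 in MuRF1 het MuRF2 null and 2.51 to 2.71 in wild type hearts. These values are from its brighter probe; the dimmer one was at -0.22 to 0.01 in double null and 0.06 to 0.28 in wild type hearts. Trim55, the MuRF2 gene, was at -1.66 to -0.52 in double null, -1.61 to -0.44 in MuRF1 null MuRF2 het, -1.53 to -1.08 in MuRF1 het MuRF2 null and -1.90 to -1.57 in wild type hearts, so it was not lower in the MuRF2 null groups, and it passed in no comparison. The deleted parts of both genes are not given, so whether the probes lie in them was not tested, and the Trim55 probe was no check of the MuRF2 genotype. Of the 6 heart muscle markers 2 were lower in double null hearts and none higher (mean ratio 3.17 to 3.78, against 3.62 to 3.79 in wild type). All 6 endothelial markers were lower in double null hearts (mean ratio 0.16 to 0.44, against 0.94 to 1.01 in wild type), and 3 of 4 atrial markers were higher (-0.79 to 1.00, against -1.78 to -1.41). Of 4 smooth muscle markers 2 were higher (-1.41 to -0.71, against -1.70 to -1.52) and of 5 fibroblast markers 1 (-2.40 to -0.50, against -2.25 to -1.98). None of 3 adipocyte markers passed by limma (1 at an unadjusted p under 0.05), with a mean ratio of -3.13 to -1.35, against -3.50 to -3.02. The part of these cell types in the chaperone results was not tested, and in whole heart RNA fewer cells of a type and less RNA per cell cannot be told apart.

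Chaperones bind unfolded or partly folded proteins and keep them from aggregating. In the cytosol, small heat shock proteins hold unfolded chains, the Hsp70 machine with its J protein partners and exchange factors refolds them, Hsp90 finishes client proteins, and the CCT chaperonin folds actin and tubulin. The endoplasmic reticulum uses BiP and Grp94, and mitochondria use mortalin and the Hsp60 and Hsp10 chaperonin. Heat shock factor 1 drives many cytosolic and some mitochondrial chaperone genes through heat shock elements, while the unfolded protein response drives those of the endoplasmic reticulum. In heart muscle, αB-crystallin and Hspb1 are known for protecting the sarcomere and its intermediate filaments.

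The first comparison asked which chaperone transcripts differ when both MuRF1 and MuRF2 are lost. In double null hearts, against wild type, the inducible cytosolic chaperones Hspa1a, Hsp90aa1 and Hspb1 were 1.87 to 2.55-fold higher, while the mitochondrial chaperones Hspd1 and Hspa9 and the endoplasmic reticulum chaperones Hspa5 and Hsp90b1 were 1.32 to 1.80-fold lower. Of the 79 members tested, 15 were higher and 11 lower by limma at an adjusted p under 0.05. The genes just named are a selection. Cytosolic Dnaja1 (0.33), Hspb8 (0.35), Dnajb1 (-0.19) and Bag3 (-0.26) and mitochondrial Hspe1 (0.33) did not pass. Over all genes 22.3% passed, 10.3% higher and 12.0% lower, and among the members it was 32.9%. Cytosolic members accounted for 11 of the 15 rises, with 2 falls among 50, and mitochondrial members for 4 falls and no rise among 8. The endoplasmic reticulum had 2 rises and 2 falls among 13, and the members placed elsewhere 2 rises and 3 falls among 8. Median differences were 0.09 for cytosolic, -0.12 for endoplasmic reticulum and -0.38 for mitochondrial members, beside 0.01 over all genes. On 29 members the 4 double null arrays lay wholly above (16) or below (13) the 4 wild type arrays, beside 25.5% of all genes.

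The direction of most rises changed with how the arrays were scaled, and that of the falls did not, except relative to the shifted median. When each array was centred on its own median in place of the loess curve, the median of all genes moved to -0.49 for double null against wild type, and 33 members passed, 1 higher and 32 lower. Of the 15 rises only 2, Hspa1a and Hspbap1, then kept a difference above 0, 10 lay above the shifted median of all genes, and none passed. All 11 falls stayed below 0 and passed, and 9 lay below the shifted median. Below, the value with median centring stands beside each rise of a member, with its distance from the shifted median, written as relative. All 15 rises and all 11 falls kept their direction with the authors' Feature Extraction log ratio (9 and 8 passed) and with scaling between arrays (14 and 10 passed). On slide 1 alone no member passed by limma (26 at an unadjusted p under 0.05, where no gene passed at all), and on slide 3 alone 25 did, 17 higher and 8 lower. The share of all genes that passed with median centring or on slide 3 alone is not given here. The counts of members under these settings therefore do not set chaperones apart. Without the 2 dimmest arrays 36 members passed, 21 higher and 15 lower, all 26 among them, beside 29.3% of all genes. Of the 26 calls 18 held in each of the 8 fits that left out 1 double null or wild type array, Dnaja3 among them at the threshold, and the other 8, named with these values below, did not.

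**Figure D1:**
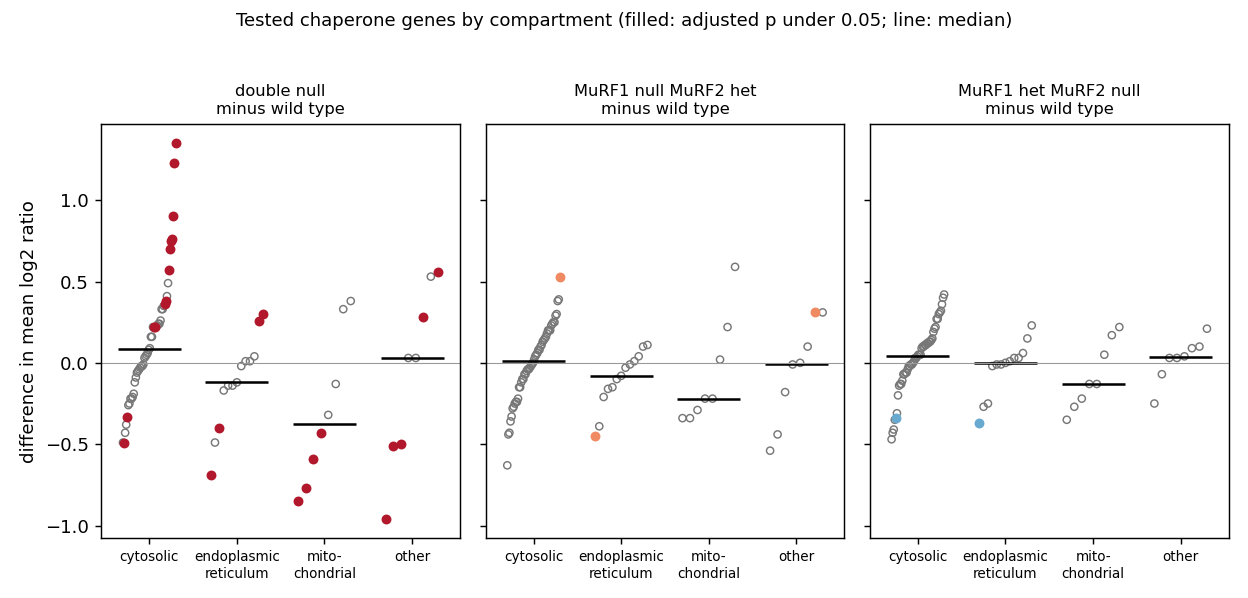
Difference in mean log2 ratio of each tested chaperone gene against wild type, by compartment, in the 3 mutant genotypes (double null left, MuRF1 null MuRF2 het in the middle, MuRF1 het MuRF2 null right). Filled points passed at an adjusted p under 0.05 and lines are medians. In double null hearts the cytosolic median was 0.09 and the mitochondrial median -0.38. With median centring these were -0.71 and -1.32, and 13 of the 15 rises in double null hearts were no longer above 0. The median of all genes also moved below 0 there, and 10 of the 15 rises lay above it.

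Among the inducible cytosolic chaperones, Hspa1a, the stress-inducible Hsp70, was at 0.79, -0.22, -0.76 and -0.05 on the 4 double null arrays, against -1.52, -1.12, -1.45 and -1.56 in wild type. Every double null array lay above every wild type array, with a wide spread within the double null group. The difference was 1.35 ± 0.28 (SE, 2.55-fold, adjusted p = 0.00411, 0.52 with median centring, 1.02 relative). Its other probes differed by 1.25 and 0.60, and each was above background on 3 of the 4 double null arrays. All were dim, with a mean log2 heart signal of 7.2 for the probe used and of 7.0 and 6.6 for the others. Hspa1b, a near-identical neighbour, had no probe under its own name, so signal of the 2 copies could not be separated. Hsp90aa1, the inducible cytosolic Hsp90, was at -0.41, -0.31, -0.09 and -0.29 in double null and at -1.55, -1.24, -1.72 and -1.52 in wild type hearts. The groups were far apart, and the difference passed with an adjusted p of 0.000154 (2.35-fold, -0.12 with median centring, 0.37 relative). Hsp90ab1, the constitutive partner, did not pass (0.24 ± 0.12, adjusted p = 0.154). Within slides 1 and 3, Hspa1a differed by 1.61 and 1.10 and Hsp90aa1 by 1.03 and 1.43.

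Hspb1, the small heat shock protein, was at 0.88, 0.75, 1.08 and 0.88 in double null and at 0.20, -0.01, -0.25 and 0.03 in wild type hearts. No values overlapped, and the difference was 1.87-fold (adjusted p = 0.00044, 0.72 within slide 1 and 1.09 within slide 3, but -0.39 with median centring, 0.10 relative). The promoters of Hspb1 and Hspa1a are shown because both genes rose and both hold heat shock element pairs. They are the 150 bases before the annotated start, from RefSeq on GRCm38.p6, with capitals marking each match to GAANNTTC or TTCNNGAA on either strand. Hspb1 lies at chr5:135887769-135887918 on the plus strand with pairs starting at -117 and -97, and Hspa1a at chr17:34972157-34972306 on the minus strand with a pair at -104.
Hspb1: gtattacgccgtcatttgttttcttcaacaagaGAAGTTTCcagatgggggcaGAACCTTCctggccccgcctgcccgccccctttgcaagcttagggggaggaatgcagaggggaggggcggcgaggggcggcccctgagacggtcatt
Hspa1a: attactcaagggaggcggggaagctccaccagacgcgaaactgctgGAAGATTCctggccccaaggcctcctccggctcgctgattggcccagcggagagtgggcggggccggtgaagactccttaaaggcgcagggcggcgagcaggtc

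Cryab, which encodes αB-crystallin, a small heat shock protein abundant in heart muscle, gave opposite answers from its probes. On the brighter probe, used for the gene, it was at 3.69, 3.79, 3.84 and 3.76 in double null and at 3.1, 3.13, 2.87 and 2.99 in wild type hearts. On the dimmer probe it was at 0.63, -0.05, 0.80 and 0.54 in double null, above background on 3 of these 4 arrays, and at 1.08, 1.17, 1.02 and 1.04 in wild type hearts. The groups did not overlap on either probe, but double null was the higher on the first and the lower on the second. The brighter probe rose by 0.75 ± 0.09 (adjusted p = 0.000164, -0.59 with median centring, -0.10 relative), the dimmer one fell by 0.60 ± 0.17 (adjusted p = 0.0211), and their mean differed by 0.07. The cause of the disagreement was not tested.

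Hspa8, the constitutive cytosolic Hsc70, also rested on its brighter probe. That probe was at 0.82, 1.00, 1.00 and 0.94 in double null and at 0.06, 0.53, -0.02 and 0.16 in wild type hearts, with no overlap. It rose by 0.76 ± 0.11 (1.69-fold, adjusted p = 0.000586, but -0.90 with median centring, -0.41 relative). The dimmer probe was at 0.04, -0.79, 0.78 and 0.56 in double null and at -0.17, 0.39, -0.02 and -0.03 in wild type hearts, and these groups overlapped (0.10 ± 0.29, adjusted p = 0.823). The probes are shown because these results rest on them. All 3 are annotated to genes on chromosome 9, looked up by gene name, and the probes were not placed on the genome. They are printed as the 60 bases in the array files, in lower case.
Cryab, brighter probe: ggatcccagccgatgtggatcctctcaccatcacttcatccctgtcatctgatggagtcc
Hspa8, brighter probe: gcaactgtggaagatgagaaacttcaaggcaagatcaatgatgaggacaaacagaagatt
Hspa8, dimmer probe: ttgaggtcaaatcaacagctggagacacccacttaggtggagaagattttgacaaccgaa

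**Figure D2:**
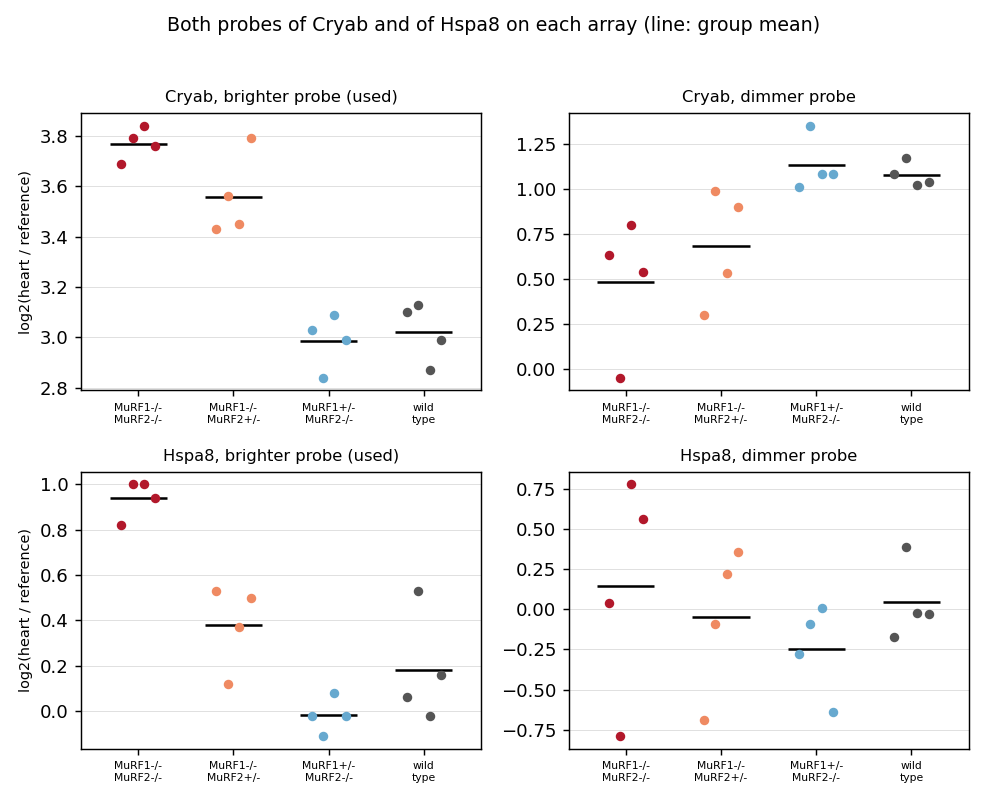
Log2 ratio of heart to reference on each array for both probes of Cryab (top) and Hspa8 (bottom), by genotype, with group means as lines. The brighter Cryab probe was at 3.69 to 3.84 in double null and 2.87 to 3.13 in wild type hearts, while the dimmer one was at -0.05 to 0.80 and 1.02 to 1.17. With median centring the brighter probes of both genes were below 0 in double null against wild type, and below the shifted median of all genes.

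Of the 7 small heat shock proteins tested, Cryab and Hspb1 rose and none fell (28.6%, beside 22.3% of all genes), with a median of 0.24. Hspb8, which works with Bag3 in muscle autophagy, was at 2.15, 0.75, 2.79 and 2.52 in double null and at 1.72, 1.88, 1.56 and 1.66 in wild type hearts. Double null 1, 3 and 4 lay above all wild type arrays, and double null 2, the dimmest, lay below them (0.35 ± 0.36, adjusted p = 0.501). Without the 2 dimmest arrays Hspb8 differed by 0.78 and passed (adjusted p = 0.000678), although it was at -0.69 with median centring. Hspb6 was at 1.79, 0.55, 2.49 and 2.21 in double null and at 2.19, 2.36, 2.22 and 2.21 in wild type hearts, which overlapped (-0.49 ± 0.39, adjusted p = 0.37). Hspb7 did not pass either (-0.22 ± 0.25, adjusted p = 0.55), and Hspb2 and Hspb3 were at 0.23 and 0.24. Within slide 1 the differences of Hspb8, Hspb6 and Hspb7 were -0.35, -1.11 and -0.76, and within slide 3 they were 1.05, 0.13 and 0.32.

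In the Hsp70 and Hsp110 family 3 of 8 tested members rose (Hspa1a, Hspa8 and Hsph1) and none fell, with a median of 0.22. That is 37.5% passing, beside 22.3% of all genes. Hsph1, the Hsp110 that exchanges nucleotide on Hsp70, was at 1.07, 0.46, 0.92 and 0.75 in double null and at -0.04, 0.32, 0.11 and 0.00 in wild type hearts. The groups did not overlap (1.63-fold, adjusted p = 0.00125, -0.26 with median centring, 0.23 relative), and the difference was 0.63 within slide 1 and 0.78 within slide 3. The relative Hspa4 was at -0.43 and did not pass (adjusted p = 0.0719). Of the Hsp90 pair, Hsp90aa1 alone rose.

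J proteins, which stimulate Hsp70 and bring it clients, went both ways. Of 18 cytosolic ones 3 rose (Dnajc9, Dnajc8 and Dnajc24) and 1, Dnajc5, fell, with a median of 0.01. That is 22.2% passing, near the 22.3% of all genes. Dnajc9, a histone chaperone, was higher by 0.38 (adjusted p = 0.00547, -0.63 with median centring, -0.13 relative), with its other probe at 0.19 (adjusted p = 0.0687). Dnajc8 and Dnajc24, the second of them a diphthamide synthesis factor, were both higher by 0.22 (adjusted p = 0.0466 and 0.0474, -0.82 and -0.11 with median centring, -0.32 and 0.38 relative). With single arrays left out, Dnajc8 passed only without double null 1 and Dnajc24 only without double null 2 or 3 (adjusted p up to 0.109 and 0.134 otherwise). The other Dnajc8 probe was at 0.31 (adjusted p = 0.0171). Dnajc5, the cysteine string protein, was at -1.01, -0.55, -0.70 and -0.93 in double null and at -0.36, -0.34, -0.24 and -0.29 in wild type hearts. It was lower on every double null array and fell by 0.49 ± 0.10 (adjusted p = 0.00433), with its other probes at -0.39 (adjusted p = 0.00393) and -0.08 (adjusted p = 0.573). Of the main partners of Hsp70, Dnaja1 did not pass on its brightest probe (0.33 ± 0.13, adjusted p = 0.0704), while its other probes were at 0.54 (adjusted p = 0.0217) and 0.18 (adjusted p = 0.348). Dnajb1 did not pass either, at -0.19 ± 0.15 (adjusted p = 0.364). The brightest Dnaja1 probe passed without double null 3 (0.42, adjusted p = 0.0276) and also without wild type 3 (0.42), and Dnajb1 was lower and passed without the 2 dimmest arrays (-0.34, adjusted p = 0.0176).

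Among 9 CCT subunits, Cct5 and Cct6a rose (22.2%, near the 22.3% of all genes that passed) and the other 7 lay between -0.09 and 0.16. Cct5 was at 0.32, 0.58, 0.35 and 0.25 in double null and at -0.17, -0.19, -0.29 and -0.15 in wild type hearts, with no overlap (1.49-fold, adjusted p = 0.00162, -0.85 with median centring, -0.35 relative). Cct6a was at -0.05, -0.09, -0.09 and 0.10 in double null and at -0.25, -0.42, -0.47 and -0.41 in wild type hearts. It too did not overlap (adjusted p = 0.0107, -0.09 with median centring, 0.41 relative). Tcp1 was at 0.05 ± 0.15 (adjusted p = 0.839). The median of the subunits was 0.08.

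Bag proteins release substrate from Hsp70. Of 6 tested with Hspbp1, 1 passed (16.7%, beside 22.3% of all genes). Bag6, a quality control factor, fell (-0.33 ± 0.08, adjusted p = 0.0112), with 0.14, 0.25, 0.39 and 0.26 in double null and 0.63, 0.66, 0.58 and 0.47 in wild type hearts. The 2 groups did not overlap, and its other probes were at -0.45 (adjusted p = 0.0177) and -0.13 (adjusted p = 0.298). Bag3, the muscle co-chaperone whose gene is a known heat shock factor target, was at 1.32, 1.18, 2.31 and 1.91 in double null and at 1.64, 2.15, 1.97 and 2.00 in wild type hearts, which overlapped (-0.26 ± 0.26, adjusted p = 0.483).

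**Figure D3:**
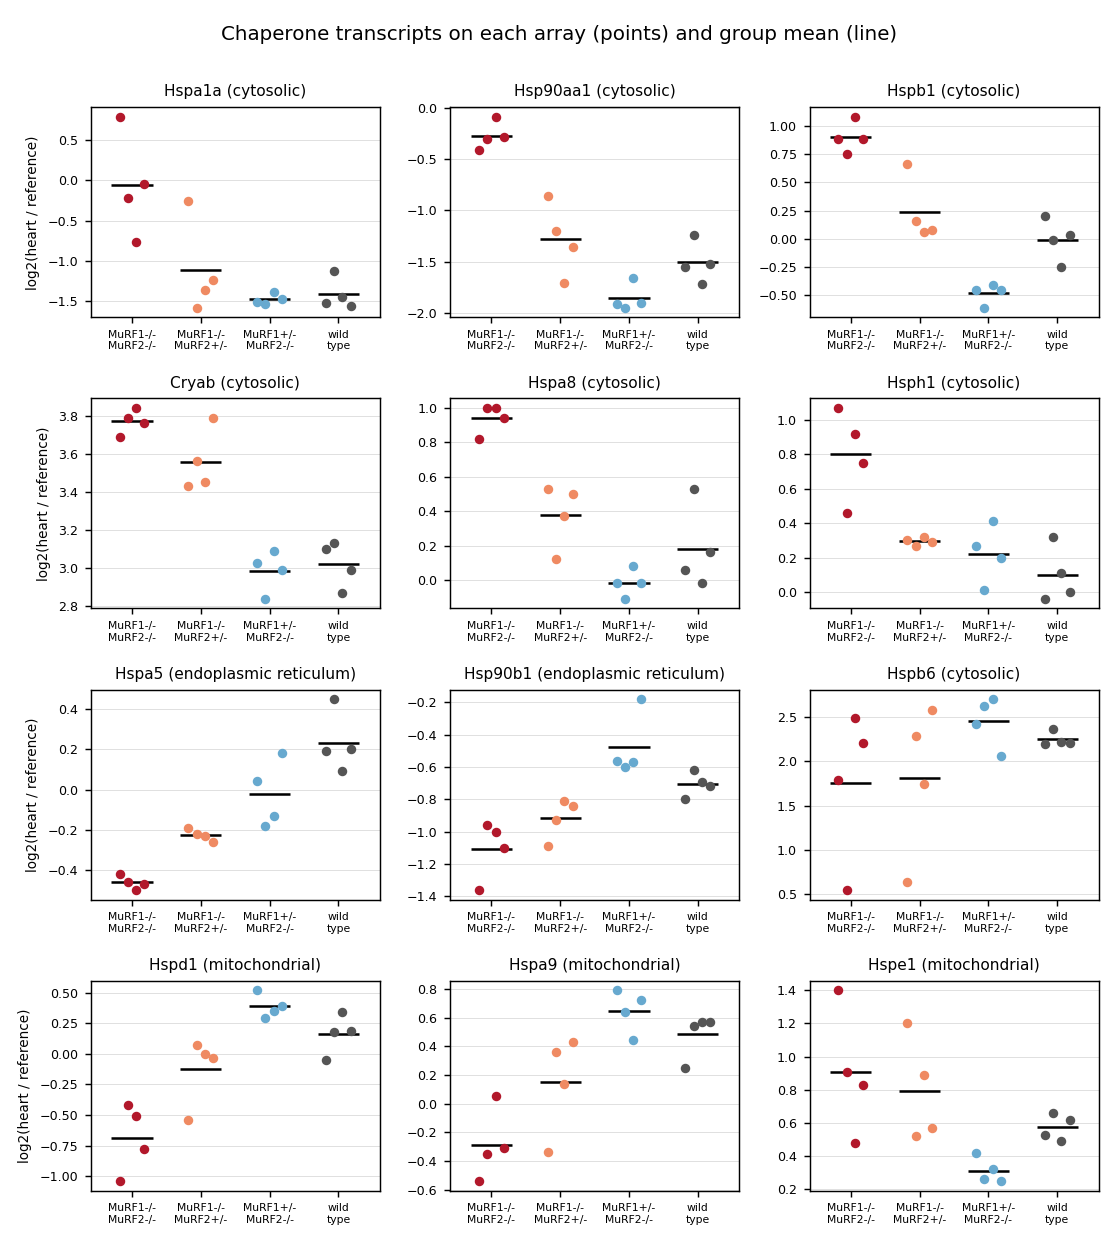
Log2 ratio of heart to reference on each array for 12 chaperone genes, by genotype, with group means as lines. For Hsp90aa1 the double null arrays sat between -0.41 and -0.09 and the wild type arrays between -1.72 and -1.24, and for Hspd1 between -1.04 and -0.42 and between -0.05 and 0.34. With median centring the rises of Hsp90aa1, Hspb1, Cryab, Hspa8 and Hsph1 were below 0 and that of Hspa1a was 0.52. The median of all genes also moved below 0 there. Hspa1a, Hsp90aa1, Hspb1 and Hsph1 lay above it and Cryab and Hspa8 below it.

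A list of heat shock factors and Hsp90 co-chaperones was read beside the members. Of its 14 tested genes 4 rose and 2 fell, beside 10.3% higher and 12.0% lower over all genes, with a median of 0.17. The rises were of the Hsp90 co-chaperones Ptges3 (0.53), Sugt1 (0.42) and Ahsa1 (0.22) and of the heat shock factor binding protein Hsbp1 (0.34). All 4 were below 0 with median centring, and relative to the shifted median they were at 0.12, -0.33, -0.55 and -0.48. The falls were of the myosin chaperone Unc45b (-0.63) and of Fkbp4 (-0.47). With single arrays left out Ahsa1 passed only without double null 2 (adjusted p up to 0.106 otherwise) and Fkbp4 did not pass without double null 3 or 4 or wild type 2 or 3 (up to 0.0832), while the other 4 passed in all 8 fits. Hsf1, the master regulator of the heat shock response, did not pass (0.15 ± 0.09, adjusted p = 0.196).

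In the endoplasmic reticulum the abundant luminal chaperones were lower. Hspa5, known as BiP, was at -0.42, -0.46, -0.50 and -0.47 in double null and at 0.19, 0.45, 0.09 and 0.20 in wild type hearts. The double null arrays were close together and all below the wild type arrays. Hspa5 fell by 0.69 ± 0.09 (1.62-fold, adjusted p = 0.000219, -1.58 relative with median centring), by 0.76 within slide 1 and 0.63 within slide 3. Hsp90b1, known as Grp94, was at -1.36, -0.96, -1 and -1.1 in double null and at -0.80, -0.62, -0.69 and -0.72 in wild type hearts. The groups did not overlap, and it fell by 0.40 ± 0.11 (adjusted p = 0.0188). It did not pass without double null 1 (-0.31, adjusted p = 0.0522) or without wild type 2 (-0.37, adjusted p = 0.0554). Its other probe was at -0.75.

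The promoters of Hspa5 and Hsp90b1 are shown because both genes fell and both hold the endoplasmic reticulum stress element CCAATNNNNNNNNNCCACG, which the unfolded protein response factors bind. Capitals mark the match, again in the 150 bases before the start from RefSeq on GRCm38.p6. Hspa5 lies at chr2:34771940-34772089 on the plus strand with the element at -65. Hsp90b1 lies at chr10:86705445-86705594 on the minus strand with the element at -107, on the opposite strand.
Hspa5: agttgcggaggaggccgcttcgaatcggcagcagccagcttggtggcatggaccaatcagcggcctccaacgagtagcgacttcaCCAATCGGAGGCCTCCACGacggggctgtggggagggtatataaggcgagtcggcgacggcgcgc
Hsp90b1: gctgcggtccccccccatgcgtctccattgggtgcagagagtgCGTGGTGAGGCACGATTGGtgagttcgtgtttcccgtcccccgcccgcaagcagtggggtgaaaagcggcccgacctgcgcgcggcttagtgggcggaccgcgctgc

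Among the other endoplasmic reticulum members, Hspa13, an atypical Hsp70, and Dnajc18, a membrane J protein, were higher by 0.26 and 0.30 (adjusted p = 0.0355 and 0.022, -0.42 and -0.28 with median centring, 0.07 and 0.22 relative). With single arrays left out, Hspa13 passed only without double null 2 or 3 (adjusted p up to 0.0979 otherwise), and Dnajc18 did not pass without double null 1, wild type 2 or wild type 4 (up to 0.0611). The other Hspa13 probe was at 0.04 (adjusted p = 0.804). The J proteins Dnajb9, Dnajb11, Dnajc3 and Dnajc10, partners of Hspa5, lay between -0.14 and 0.01 and did not pass. Dnajc16 was at -0.49 (adjusted p = 0.0515). In a list of 20 tested genes of endoplasmic reticulum folding and the unfolded protein response, 3 fell and 1 rose, with a median of -0.11. Over all genes 12.0% were lower and 10.3% higher, so this count does not set the list apart. The falls were of the calnexin gene Canx (-0.42), calreticulin, Calr (-0.25), and the ubiquitin ligase Syvn1 (-0.52). The rise was of Edem1, a factor of glycoprotein disposal (0.46, but -0.01 with the Feature Extraction log ratio and -0.12 with median centring, 0.37 relative). None of these 4 calls held in every fit with 1 array left out. Canx passed only without double null 2 and Edem1 only without double null 3 or wild type 1. Calr did not pass without double null 4 or wild type 2, 3 or 4, and Syvn1 not without double null 1 or 4 or wild type 2 or 4 (adjusted p up to 0.134 for Canx).

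In mitochondria 4 of 8 members fell and none rose (50% passing, beside 22.3% of all genes). Hspd1, the Hsp60 chaperonin, was at -1.04, -0.42, -0.51 and -0.78 in double null and at -0.05, 0.18, 0.34 and 0.19 in wild type hearts. Hspa9, known as mortalin, the Hsp70 of the matrix and of protein import, was at -0.54, -0.35, 0.05 and -0.31 in double null and at 0.25, 0.54, 0.57 and 0.57 in wild type hearts. Neither gene overlapped between the groups. Hspd1 was 1.80-fold lower (adjusted p = 0.00126) and Hspa9 1.71-fold lower (adjusted p = 0.00375), and with median centring they were at -1.90 and -1.72 relative to the shifted median. Within slides 1 and 3, Hspd1 differed by -0.79 and -0.91 and Hspa9 by -0.84 and -0.70. Other probes of the 2 genes differed by -0.82 and -0.80.

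Dnaja3, the mitochondrial J protein Tid1, was at 0.85, 0.23, 0.93 and 0.76 in double null and at 1.13, 1.30, 1.43 and 1.28 in wild type hearts (1.51-fold lower, adjusted p = 0.0152, at the threshold with 0.05 without wild type 3). Its other probe was at -0.47 (adjusted p = 0.0992). Dnajc11, which associates with the cristae organising complex, was at 0.19, 0.01, 0.39 and 0.23 in double null and at 0.58, 0.71, 0.66 and 0.60 in wild type hearts (-0.43 ± 0.10, adjusted p = 0.00772, but 0.09 relative with median centring). Both genes were lower on every double null array. Dnajc30, Dnajc19 and Dnajc15 were at -0.32, -0.13 and 0.38 and did not pass (adjusted p = 0.0574, 0.359 and 0.31).

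Hspe1, the Hsp10 lid that works with Hsp60, did not pass. It was at 1.4, 0.91, 0.48 and 0.83 in double null and at 0.53, 0.66, 0.49 and 0.62 in wild type hearts, and the groups overlapped (0.33 ± 0.16, adjusted p = 0.151, -0.97 with median centring). Without double null 3 it was higher and passed (0.47, adjusted p = 0.0353). The Hspe1 promoter is shown because Hspe1 and Hspd1 are neighbours read in opposite directions, and the same heat shock element lies in the windows of both. The 150 bases are from RefSeq on GRCm38.p6, chr1:55087998-55088147 on the plus strand, with capitals marking overlapping matches to GAANNTTCNNGAA or TTCNNGAANNTTC at -89 and -84.
Hspe1: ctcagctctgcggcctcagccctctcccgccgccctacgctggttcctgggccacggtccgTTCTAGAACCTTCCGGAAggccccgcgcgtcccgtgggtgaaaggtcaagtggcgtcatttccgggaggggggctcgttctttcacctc

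Of 18 tested genes of mitochondrial import and proteolysis, 6 fell and 2 rose, beside 12.0% lower and 10.3% higher over all genes. The median was -0.07. The falls included the proteases Lonp1 (-0.77), Afg3l2 (-0.61) and Spg7 (-0.55), the unfoldase Clpx (-0.48), the prohibitin Phb2 (-0.30) and Trap1, the mitochondrial Hsp90 (-0.59). The rises were of the outer membrane import receptors Tomm22 (0.58) and Tomm20 (0.46), both below 0 with median centring (-0.32 and -0.67) and at 0.17 and -0.18 relative. With single arrays left out, Afg3l2 and Clpx passed in all 8 fits, and Trap1 and Spg7 only without double null 3 (adjusted p up to 0.135 and 0.127 otherwise). Lonp1 did not pass without double null 1 or wild type 2, Phb2 without double null 2 or 4 or wild type 2 or 4, Tomm20 without double null 1 or 4 or wild type 3, and Tomm22 without double null 1 or 4 or wild type 1, 3 or 4.

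Members without a clear compartment also changed. Hspb11, which despite its name acts in intraflagellar transport, was at 0.27, 0.10, 0.19 and 0.21 in double null and at -0.37, -0.41, -0.39 and -0.28 in wild type hearts. It rose 1.47-fold with no overlap (adjusted p = 0.000156, -0.24 with median centring, 0.25 relative). Hspbap1 rose by 0.28 (adjusted p = 0.0216, 0.0707 without wild type 2, 0.01 with median centring, 0.50 relative). Dnajc28 was at 1.59, 0.55, 1.22 and 1.41 in double null and at 2.02, 2.34, 2.13 and 2.10 in wild type hearts, and was 1.94-fold lower (adjusted p = 0.0456). With single arrays left out this brightest Dnajc28 probe passed only without double null 1 (adjusted p up to 0.119 otherwise). The other Dnajc28 probes were at -0.73 (adjusted p = 0.00174) and -0.37 (adjusted p = 0.0268). The first of these also passed in MuRF1 null MuRF2 het against wild type (-0.59, adjusted p = 0.0391). Hspa12b, an endothelial Hsp70 relative, fell by 0.51 (adjusted p = 0.0157; 0.052 without wild type 3), beside the lower endothelial markers given above. Hspa12a was not well above background on any double null array and was at least 1.28-fold lower (adjusted p = 0.00619, 0.11 relative with median centring). Tmem208, a member only through the old name Hspc171, was at 0.53 (adjusted p = 0.0504).

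Compartments were also compared within each array, as the median of the mitochondrial or endoplasmic reticulum members minus the median of the cytosolic members, each gene taken relative to its wild type mean. The mitochondrial minus cytosolic difference was -0.41, -0.51, -0.61 and -0.52 in double null and -0.50, -0.12, -0.07 and -0.21 in MuRF1 null MuRF2 het hearts. It was -0.13, -0.16, -0.20 and -0.19 in MuRF1 het MuRF2 null and -0.04, 0.04, -0.01 and 0.03 in wild type hearts. Apart from MuRF1 null MuRF2 het 1, the dimmest array of its group, all other arrays lay above the double null arrays. Wild type arrays are near 0 by construction, and these values are a description with no test. The endoplasmic reticulum minus cytosolic difference was -0.10, 0.03, -0.36 and -0.31 in double null and 0.03, -0.01, -0.12 and -0.23 in MuRF1 null MuRF2 het hearts. It was 0.03, -0.06, -0.11 and -0.07 in MuRF1 het MuRF2 null and 0.04, 0.06, -0.09 and 0.03 in wild type hearts. These groups overlapped.

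**Figure D4:**
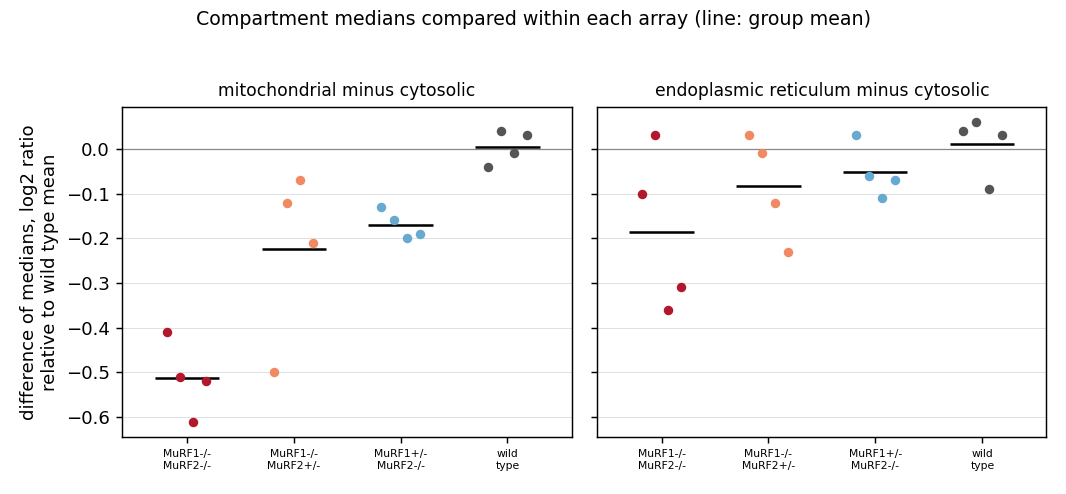
Median of mitochondrial (left) or endoplasmic reticulum (right) members minus the median of cytosolic members on each array, in log2 ratio relative to the wild type mean, by genotype, with group means as lines. The mitochondrial difference was -0.61 to -0.41 in double null and -0.04 to 0.04 in wild type hearts. The 2 medians of double null against wild type were -1.32 and -0.71 with median centring.

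A second comparison, MuRF1 null MuRF2 het against wild type, asked what differs when 1 MuRF2 allele is left. It shares its wild type arrays with the comparison above. Of 79 members 2 rose and 1 fell, beside 1.03% of all genes, 0.316% higher and 0.714% lower. There were 9 members without overlap between the groups, beside 12.7% of all genes. Cryab, on the brighter probe, was at 3.43, 3.56, 3.45 and 3.79 in MuRF1 null MuRF2 het, against 2.87 to 3.13 in wild type hearts, with no overlap. It rose by 0.53 ± 0.09 (adjusted p = 0.0158), whereas median centring gave -0.84, or -0.34 relative, and the dimmer probe was at -0.40 (adjusted p = 0.179). Hspb11 was at -0.09, -0.13, -0.04 and 0.01 in MuRF1 null MuRF2 het, against -0.41 to -0.28 in wild type hearts (0.31 ± 0.07, adjusted p = 0.0419, -0.47 with median centring, 0.04 relative). Hspa5 was at -0.19, -0.22, -0.23 and -0.26 in MuRF1 null MuRF2 het, against 0.09 to 0.45 in wild type hearts, and fell by 0.45 ± 0.09 (adjusted p = 0.0303, -1.34 relative with median centring). All 3 were without overlap.

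These counts changed when single arrays were left out. The 3 became 1 without MuRF1 null MuRF2 het 1, 3 or 4 or without wild type 1, 2 or 3, 0 without wild type 4 (11 at an unadjusted p under 0.05 by limma) and 12 without MuRF1 null MuRF2 het 2. Cryab passed in 6 of 8 such fits (adjusted p = 0.0576 without wild type 3 and 0.0636 without wild type 4), Hspa5 in 2 and Hspb11 in 1. Other genes that rose in double null hearts did not pass here. Hspa1a was at 0.30 ± 0.28 (adjusted p = 0.518), with MuRF1 null MuRF2 het 1 at -0.26 and the other 3 arrays at -1.58 to -1.23, against -1.56 to -1.12 in wild type. Hsp90aa1 was at 0.23, Hspb1 at 0.25, Hspa8 at 0.20 and Hsph1 at 0.20 (adjusted p = 0.357, 0.247, 0.294 and 0.325), all 5 below 0 with median centring. Among mitochondrial members Hspd1 was at -0.29, Hspa9 at -0.34 and Dnaja3 at -0.22 (adjusted p = 0.24, 0.213 and 0.401). Compartment medians were 0.01 for cytosolic, -0.08 for endoplasmic reticulum and -0.22 for mitochondrial members, beside 0 over all genes. No gene of the 3 pathway lists passed by limma (2, 6 and 5 at an unadjusted p under 0.05 among heat shock factors and co-chaperones, endoplasmic reticulum folding, and mitochondrial import), and the list medians were 0.09, -0.11 and -0.02.

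A further comparison, MuRF1 het MuRF2 null against wild type, asked what differs when 1 MuRF1 allele is left, and it too shares the wild type arrays. No member rose and 2 fell, beside 1.95% of all genes, 0.673% higher and 1.28% lower. There were 16 members without overlap, beside 20.7% of all genes. The standard errors used the spread of all 16 arrays, also of the groups outside this comparison. Hspb8, for example, had a standard deviation of 0.91 in double null and 0.71 in MuRF1 null MuRF2 het hearts. It was 0.07 in MuRF1 het MuRF2 null and 0.13 in wild type hearts. Hspb8 did not overlap here but did not pass (0.27 ± 0.36, adjusted p = 0.795 by limma). Few calls therefore do not show that little differed. Bag6 was at 0.21, 0.25, 0.21 and 0.31 in MuRF1 het MuRF2 null, against 0.47 to 0.66 in wild type hearts, and fell by 0.34 ± 0.08 (adjusted p = 0.0383, -0.45 relative with median centring). Dnajb12, a J protein of the endoplasmic reticulum membrane, was at 0.25, 0.22, 0.20 and 0.33 in MuRF1 het MuRF2 null, against 0.71, 0.64, 0.48 and 0.64 in wild type hearts. Neither gene overlapped, and Dnajb12 fell by 0.37 ± 0.07 on its brightest probe (adjusted p = 0.0166, -0.44 relative with median centring). The other Dnajb12 probe was at 0.05 (adjusted p = 0.919), and the other Bag6 probes were at -0.14 and -0.10 (adjusted p = 0.645 and 0.665). Bag6 passed in none and Dnajb12 in 2 of the 8 fits that left out 1 array of these groups: the count was 1 without MuRF1 het MuRF2 null 4 or wild type 3, and 0 without any of the other 6 (10 to 13 at an unadjusted p under 0.05 by limma).

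None of the inducible cytosolic members passed in MuRF1 het MuRF2 null hearts. Hspb1 was at -0.45, -0.61, -0.41 and -0.45, against 0.20, -0.01, -0.25 and 0.03 in wild type hearts, without overlap but also without passing (-0.47 ± 0.13, adjusted p = 0.0701). It was lower and passed without the 2 dimmest arrays, both from other groups (-0.47, adjusted p = 0.00588). Hsp90aa1 was at -0.35, Hspa8 at -0.20 and Hspa1a at -0.06 (adjusted p = 0.252, 0.432 and 0.954). Hspd1 and Hspa9 were at 0.22 and 0.17 (adjusted p = 0.502 and 0.684), and at -0.40 and -0.42 with median centring. Compartment medians were 0.04, 0 and -0.13 for cytosolic, endoplasmic reticulum and mitochondrial members, beside -0.01 over all genes. In the pathway lists, 2 endoplasmic reticulum folding genes fell, and none passed among heat shock factors and co-chaperones or mitochondrial import by limma (3, 9 and 2 at an unadjusted p under 0.05, in the order of the lists above).

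**Figure D5:**
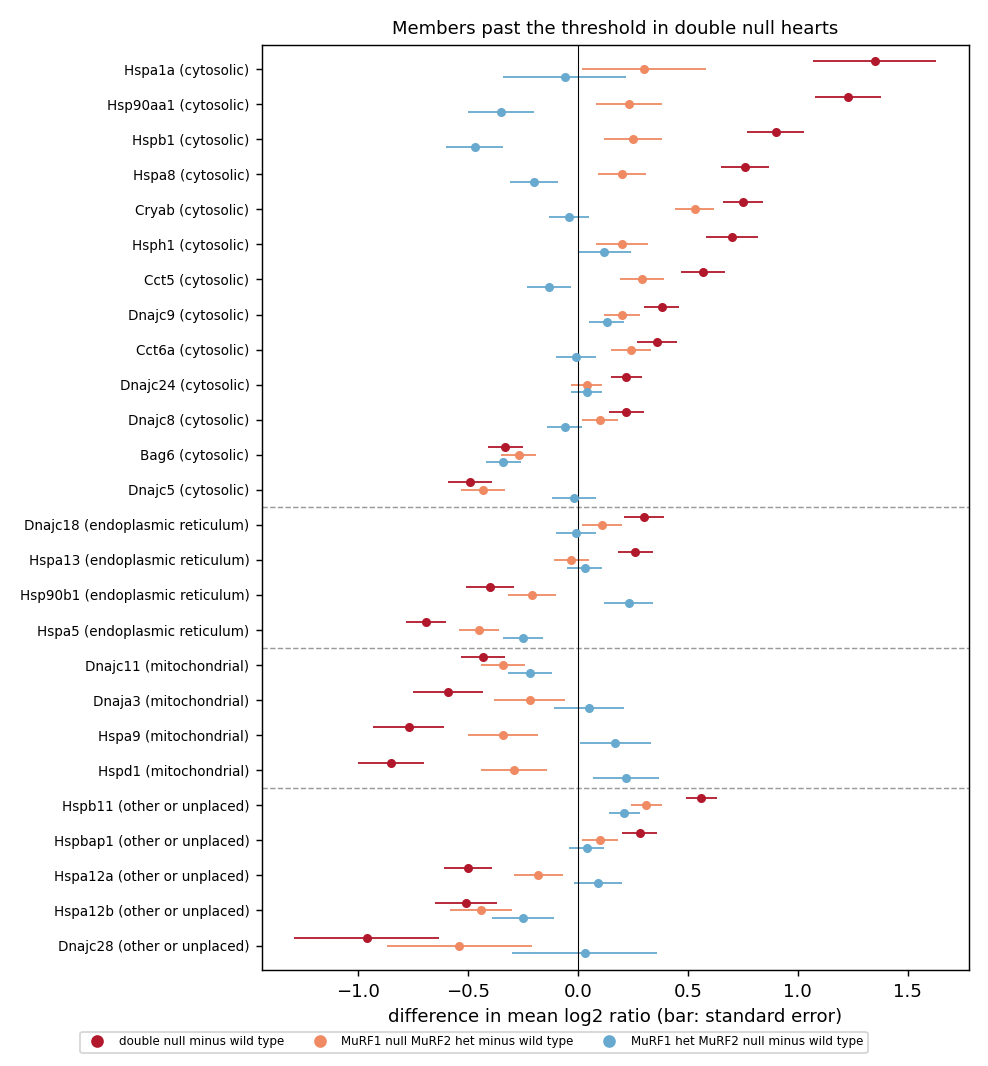
Difference in mean log2 ratio against wild type, with its standard error as the bar, for the 26 members that passed in double null hearts. Red marks double null, orange MuRF1 null MuRF2 het and blue MuRF1 het MuRF2 null hearts, and dashed lines part the compartments. Hsp90aa1 was at 1.23, 0.23 and -0.35 in that order and Hspd1 at -0.85, -0.29 and 0.22. With median centring the double null differences of all rises but Hspa1a and Hspbap1 were below 0. The median of all genes also moved below 0 there, and 10 of the 15 rises lay above it.

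The 3 mutant genotypes were also compared with each other. Between double null and MuRF1 null MuRF2 het hearts, which differ by the last MuRF2 allele, 3 members were higher and none lower, beside 0.349% of all genes (0.162% higher, 0.187% lower). Hsp90aa1 was at -0.41 to -0.09 in double null and at -1.71 to -0.86 in MuRF1 null MuRF2 het hearts, a difference of 1.01 ± 0.15 (adjusted p = 0.0111). Hspb1 (0.66 ± 0.13, adjusted p = 0.0381) and Hspa8 (0.56 ± 0.11, adjusted p = 0.0499) were higher as well. The double null arrays lay above the others for each of the 3, and relative to the shifted median they were at 1.08, 0.72 and 0.62 with median centring. None of the 3 passed under that setting. On the dimmer Hspa8 probe the means were 0.15 in double null and -0.05 in MuRF1 null MuRF2 het hearts. These groups lie on different slides, which cannot be told apart from genotype. There were 8 members without overlap, beside 2.89% of all genes, and 18 were at an unadjusted p under 0.05. The count of 3 was 6 without double null 2, 9 without MuRF1 null MuRF2 het 1, 1 without double null 3 or MuRF1 null MuRF2 het 2 or 3, and 0 without double null 4 or MuRF1 null MuRF2 het 4 (13 and 15 at an unadjusted p under 0.05 by limma).

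Between double null and MuRF1 het MuRF2 null hearts, which differ by the last MuRF1 allele, 16 members were higher and 12 lower, beside 26.3% of all genes (13.6% higher, 12.7% lower). Hsp90aa1 differed by 1.58 (adjusted p = 3.68e-05), Hspa1a by 1.42 (adjusted p = 0.00248) and Hspb1 by 1.38 (adjusted p = 3.68e-05). Hspe1 was higher here (0.59, adjusted p = 0.0156), at 0.48 to 1.4 in double null and 0.25 to 0.42 in MuRF1 het MuRF2 null hearts without overlap. Hspd1 was at -1.07, Hspa9 at -0.94, Dnaja3 at -0.64, Hsp90b1 at -0.62 and Hspa5 at -0.44, and all 5 passed. With median centring, 14 of the 16 higher members lay above the shifted median and 9 above 0, and all 12 lower members stayed lower. Under that setting none of the 16 higher members passed, and 1 of the 12 lower ones did. These groups lie on different slides and were read with different software versions, which cannot be told apart from genotype.

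Comparing MuRF1 null MuRF2 het against MuRF1 het MuRF2 null hearts, 6 members were higher and 4 lower, beside 8.54% of all genes (4.56% higher, 3.98% lower). The higher ones were Dnajc15 (0.93), Hspb1 (0.72), Cryab (0.57), Hsp90aa1 (0.57), Cct5 (0.43) and Hspa8 (0.40), of which 1 was above 0 and 2 above the shifted median with median centring. The lower ones were Hspd1 (-0.51), Dnajb5 (-0.45), Hsp90b1 (-0.44) and Dnajc5 (-0.41), of which all 4 were below 0 and 3 below the shifted median with median centring. None of the 6 higher and 4 lower members passed under that setting. Their count of 10 was 4, 16, 4 and 6 without MuRF1 null MuRF2 het 1, 2, 3 and 4, and 2, 3, 5 and 3 without MuRF1 het MuRF2 null 1, 2, 3 and 4. Genotype and slide cannot be told apart here either.

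Motifs were counted in the RefSeq windows from position -250 to 50 bases after the start, which were at hand for 72 of the 90 members and for 27025 genes in all. A heat shock element pair was in the window of 20 members (27.8%), beside 17.0% of all genes. It was in 16 of 48 cytosolic, 1 of 11 endoplasmic reticulum and 2 of 5 mitochondrial members. Of the members that rose in double null hearts 5 of 10 with a window held it (Cct5, Cct6a, Hspa1a, Hspb1 and Hsph1), of those that fell 1 of 8 (Hspd1) and of those that did not pass 12 of 46. An element of 3 units was in 4 members (Dnajb6, Hspd1, Hspe1 and Hsph1; 5.56%), beside 0.662% of all genes, and the endoplasmic reticulum stress element in 3 (Dnajc3, Hsp90b1 and Hspa5; 4.17%), beside 0.137%. Hsp90aa1, Hspa8, Cryab, Hspa9 and Hspb2 had no window in the table. A gene was counted when any of its listed windows held the motif, and Hspd1 held its matches in only some of its windows. A match is a run of letters and not a shown binding site.

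The 11 members that were not tested were Bag4, whose probes were above background on 2 arrays, and Cct8l1, Dnajb13, Dnajb3, Dnajb7, Dnajb8, Dnajc22, Dnajc5b, Dnajc5g, Dnajc6 and Hspb9, above background on none in the heart channel. Of the 36 members with several tested probes, all probes shared the sign of the double null difference in 25, of the MuRF1 null MuRF2 het difference in 26 and of the MuRF1 het MuRF2 null difference in 19. Opposite signs in double null hearts included Hsp90ab1, Hspb7 and Dnajb1, whose other probes were at -0.07, 0.07 and 0.15 and did not pass.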

How the data were processed

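RNA from 16 hearts was hybridised to 2-colour Agilent arrays, with heart RNA in Cy5 and the pup reference in Cy3 by the channel labels and no dye swap; the labels' labelling protocol names only Cy3. The labels call the replicates biological. Per the file headers, arrays were read with Feature Extraction 9.1.3.1 (12 arrays) and 9.5.3.1 (all 4 arrays of MuRF1 het MuRF2 null). The deposited files give spot and background intensity and the authors' log10 ratio of Cy5 over Cy3. The deposited series matrix gives log2 ratios, found from the values to be that log ratio less each probe's median; the step behind it is not described in the labels.

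Intensities were processed with limma 3.58.1 under R 4.3.3, using data.table (version 1.17.8), by these steps (normexp, offset 50; loess; 1639 control spots left out; spots of a probe averaged). Probes above background in Cy5 on at least 4 of 16 arrays were kept (16810 of 41174), and the brightest represented its gene. One model over 16 arrays gave 6 comparisons, two-sided, with Benjamini-Hochberg adjustment over 12331 genes. Precision is limited by having 4 arrays per group. The procedure was tested on simulated data. Members, compartments and lists were chosen with earlier results of these data known. Named genes are 20 chaperones always described, members that passed against wild type, the 10 largest rises and 10 largest falls of each comparison, and genes of the pathway lists that passed; others were named after their values were seen. Same-numbered replicates were not paired by the labels. Alternatives were the Feature Extraction ratio, series matrix, median centring, scaling, filters, the mean of probes, slide as a block or alone, the replicate block, Cy5 brightness as a covariate, single arrays left out and, chosen after seeing the data, the 2 dimmest arrays left out. Promoter sequences come from RefSeq, GRCm38.p6.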

Additional observations from a re-analysis of the deposited data

Results flagged for a closer look

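In 10 of 132 groups of 4 arrays (124 from the 31 members examined one by one and 8 from the 2 compartment differences) a single array stood far from the other 3, where chance gives about 1 in 20 groups. Of these 10, 4 were on MuRF1 null MuRF2 het 1, the dimmest array of its group with 6397 probes above background: Dnajc28 was at 0.23 there (nearest other array 2.04), Dnajc9 at -0.54 (-0.79), Hspb1 at 0.66 (0.16) and Hspd1 at -0.54 (-0.03). The part of array brightness in this was not tested. Hspa12b was at 0.78 on MuRF1 null MuRF2 het 2 (0.23). In MuRF1 het MuRF2 null hearts Hsp90aa1 was at -1.66 on array 3 (-1.90) and Hsp90b1 at -0.18 on array 4 (-0.56). In wild type hearts Hspa12a was at 0.34 on array 4 (0.51), Hspa9 at 0.25 on array 1 (0.54) and Hspb6 at 2.36 on array 2 (2.22).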

How the results depend on the processing

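Values are given in the order double null, MuRF1 null MuRF2 het, MuRF1 het MuRF2 null, each against wild type, and the cause of each change was not tested. With median centring 25 of the 54 differences of named members reversed: against wild type, in double null hearts Cct5 -0.85, Cct6a -0.09, Cryab -0.59, Dnaja1 -0.62, Dnajc9 -0.63, Hsp90aa1 -0.12, Hsp90ab1 -1.22, Hspa8 -0.90, Hspb1 -0.39, Hspb11 -0.24, Hspb8 -0.69, Hspe1 -0.97, Hsph1 -0.26 and Tcp1 -1.05. In MuRF1 null MuRF2 het hearts these were Cryab -0.84, Hsp90aa1 -1.19, Hspa1a -0.51, Hspa8 -1.51, Hspb1 -1.10, Hspb11 -0.47 and Hsph1 -0.78, and in MuRF1 het MuRF2 null hearts Hsp90b1 -0.33, Hspa9 -0.42, Hspd1 -0.40 and Hsph1 -0.33. Cytosolic, endoplasmic reticulum and mitochondrial medians became -0.71, -0.66 and -1.32, then -0.90, -0.65 and -1.18, then -0.36, -0.38 and -0.50. Under that setting 43 members passed in MuRF1 null MuRF2 het hearts, and 0 (2 at an unadjusted p under 0.05 by limma), 1 and 0 (6) among the mutant comparisons in the order of the report. No count of members in this section stands beside its share of all genes, so none sets chaperones apart. With the Feature Extraction ratio and the series matrix alike, the endoplasmic reticulum medians were -0.20 and -0.15 in double null and MuRF1 null MuRF2 het hearts, 0 members passed in MuRF1 null MuRF2 het (13 at an unadjusted p under 0.05 by limma) and in MuRF1 het MuRF2 null hearts (9) and 2 between these 2 groups, and Tcp1 was at -0.10 in double null and Cryab at 0.01 in MuRF1 het MuRF2 null hearts. With scaling Hspb7 was at 0.08 and Tcp1 at -0.01 in double null and Cryab at 0.05 in MuRF1 het MuRF2 null hearts. Without a filter the cytosolic median in MuRF1 het MuRF2 null hearts was 0.02, and 1 member passed between double null and MuRF1 null MuRF2 het. A strict filter gave medians of 0.09 and -0.15 for cytosolic and endoplasmic reticulum members in MuRF1 null MuRF2 het hearts. With the mean of probes 1 member passed in MuRF1 het MuRF2 null hearts and 5 between the single-allele groups, and Cryab (0.01) and Hspa1a (0.04) reversed in MuRF1 het MuRF2 null hearts. Slide 1 alone gave 0 members (26 at an unadjusted p under 0.05 by limma), cytosolic and mitochondrial medians of -0.07 and -0.48, Hspb8 at -0.35 and Tcp1 at -0.15. Slide 3 alone gave medians of 0.23 and -0.28, with Bag3 at 0.12, Hspb6 at 0.13 and Hspb7 at 0.32. With Cy5 brightness as a covariate the 3 double null medians were 0.26, -0.05 and -0.21, and Bag3 (0.38), Hspb6 (0.59), Hspb7 (0.41) and, in MuRF1 null MuRF2 het hearts, Hspa1a (-0.05) reversed. The other cytosolic medians were then 0.13 and 0.01, and 5, 11 and 8 members passed in MuRF1 null MuRF2 het, in MuRF1 het MuRF2 null and between double null and MuRF1 null MuRF2 het. Without the 2 dimmest arrays the cytosolic median in double null hearts was 0.19 with Hspb7 at 0.00, and 6, 7 and 11 members passed in those 3 comparisons. Replicate numbers did not pair the samples: same-numbered double null and wild type arrays correlated at 0.16, -0.22, 0.28 and -0.12, and the replicate block gave 24 members in double null hearts and 1 in each of those 3 comparisons. Leaving out single arrays gave 19 to 31 members in double null hearts, with medians of 0.03 to 0.19, -0.14 to -0.07 and -0.43 to -0.31. It gave 0 to 12 in MuRF1 null MuRF2 het hearts (-0.03 to 0.04, -0.10 to -0.03, -0.28 to -0.08) and 0 to 1 in MuRF1 het MuRF2 null hearts (0.04 to 0.05, -0.03 to 0.02, -0.16 to -0.10). Among the mutants it gave 0 to 9, 23 to 30 and 2 to 16. Differences near 0 changed sign when single arrays were left out: Hspb7 -0.38 to 0.00 and Tcp1 -0.09 to 0.18 in double null hearts, and Cryab -0.09 to 0.01 and Hspa1a -0.11 to 0.04 in MuRF1 het MuRF2 null hearts. Hspa12a and Dnajc13 were not well above background on any double null array, which leaves only a bound there.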
